A study of Canis lupus familiaris with 12 samples.

Results

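The genes described here encode actin and proteins that nucleate, elongate, bind, cap, sever, and crosslink actin filaments. The list held 59 genes: the cytoplasmic actins, subunits and activators of the ARP2/3 complex, formins, Ena/VASP proteins, monomer-binding and turnover factors, capping and severing proteins, ERM proteins, bundling proteins, coronins, and spectrins. They were chosen by name for what their products do, with earlier results of these data known. Of them, 57 were measured among the 13672 genes of the expression table. FMNL2 and INF2 were not found under these symbols. All 57 passed the filter on low values and were tested.

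mRNA of MDCKII cells, an epithelial line from dog kidney, was measured by RNASeq in 12 libraries. WT cells, cells KO for cingulin (CGN-KO, line 1G8), cells KO for paracingulin (CGNL1-KO, line 22), and cells KO for both (CGN/CGNL1 double-KO, line 21D3) were each sequenced as 3 libraries without any treatment. Each KO genotype was 1 clonal line made with CRISPR/Cas9 in Tet-off MDCKII cells, so the KO of a gene and other differences between clones cannot be told apart. CGN and CGNL1 are cytoplasmic proteins of epithelial junctions that bind nonmuscle myosins. The study asked how they tether these myosins to junctions and, among other things, what they do for the actin filaments there. That gives the comparison of actin genes its question.

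Actin filaments grow and shrink at their ends. The ARP2/3 complex starts branched networks, formins and Ena/VASP proteins extend unbranched filaments, profilin delivers monomers, cofilin and destrin take filaments apart, and capping proteins stop growth. In polarized epithelial cells such filaments form the junctional belt, the microvilli, and the cortex, where bundling proteins, ERM proteins, and the spectrin skeleton tie them together and to the membrane.

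The libraries held 16837532 to 30086076 reads, as recovered from the deposited CPM (read counts of a gene scaled to a common library size). The epithelial markers (6 of 6 measured, summed level 5355 to 5826 CPM) and the kidney tubule markers (4 of 4, 267 to 350.05 CPM) were present in every library. Of the markers of other cells, 0 of 4 fibroblast genes were listed, and the single endothelial (VWF) and leukocyte (CD68) genes listed stayed at or below 1.34 CPM. The summed epithelial level was 5355 to 5430 CPM in CGN-KO and 5384 to 5481 CPM in double-KO cells, below the 5656 to 5826 CPM of WT and the 5603 to 5764 CPM of CGNL1-KO cells, and the summed kidney tubule level was higher in CGN-KO (303 to 332 CPM) and double-KO cells (326 to 350.05 CPM) than in WT (267 to 298 CPM). Epithelial markers moved both ways, with EPCAM at 555 to 612 CPM in WT and 689 to 791 CPM in KO libraries and CLDN4 at a mean of 331 CPM in WT and 292, 249, and 243 CPM in CGN-KO, CGNL1-KO, and double-KO cells. What part these had in any result was not tested. The targeted genes were lower than in WT in the lines labeled KO for them. CGN was 199 to 233 CPM in WT and 198 to 213 CPM in CGNL1-KO cells but 47.0 to 56.5 CPM in CGN-KO and 39.7 to 45.3 CPM in double-KO cells. CGNL1 was 7.74 to 12.3 CPM in WT, 5.04 to 6.92 CPM in CGN-KO, 1.76 to 3.02 CPM in CGNL1-KO, and 1.11 to 1.76 CPM in double-KO cells. In CGN-KO cells, where CGNL1 was not targeted, its values were thus also below all WT values. Its mean there was 38.4% lower than in WT (limma, adjusted p = 0.020). No label says that the 3 libraries of a genotype came from separate cultures, so the p-values measure the spread between these libraries, which may be technical. These are bulk samples, in which fewer cells that express a gene and less RNA per cell cannot be told apart.

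The actin genes were well covered. Their mean WT level ran from 19.5 CPM (DAAM1) to 3833 CPM (ACTG1), with a median of 222 CPM against 27.3 CPM for all listed genes, and a value rested on 282 to 96568 reads. CPM are not divided by transcript length, so levels are compared here between genotypes and not between genes. Together the 57 genes held 1.93% to 2.16% of the reads of a library, and the range was 2.05% to 2.16% in WT, 1.93% to 2.12% in CGN-KO, 2.01% to 2.15% in CGNL1-KO, and 2.08% to 2.16% in double-KO cells. The summed share thus overlapped between WT and each KO line. Below, values of a genotype follow replicate order, with the unnumbered double-KO library first, and log2 changes are differences of log2(CPM + 1) from WT with their SE. Each genotype has n = 3 libraries throughout.

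More actin genes changed in double-KO than in single-KO cells. A gene was called at an adjusted p below 0.05 (limma, Benjamini-Hochberg over the 12650 genes tested). In CGN-KO cells 11 of 57 actin genes (19.3%) were called, 6 higher and 5 lower, and in CGNL1-KO cells 5 (8.77%), 3 higher and 2 lower. In double-KO cells 20 (35.1%) were called, 8 higher and 12 lower. Among all genes tested the share called was 19% in CGN-KO cells, 10.3% in CGNL1-KO cells, and 26.3% in double-KO cells. The shares of actin genes thus lay near these backgrounds in the single-KO lines and above it in double-KO cells. The actin genes had a higher median level than all genes, and what part level had in these shares was not tested. The double-KO share lay near the background once gene position was taken out, as 13 of 57 (22.8%) were then called both with chromosome medians and with neighbouring genes subtracted, against 22.6% and 20.6% of all genes. In the fit without subtraction the share called lower was 11.5% among all genes in double-KO cells, and 12 of 57 actin genes fell there. Without WT replicate 1, without WT replicate 2, without CGNL1-KO replicate 1, and without CGNL1-KO replicate 2 the CGNL1-KO count was 3 each time.

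All the changes were smaller than 2-fold. No actin gene passed an adjusted p below 0.05 together with a 2-fold change, the threshold that the study used, in any of the 3 comparisons with WT (0 of 57 with limma, edgeR, and DESeq2), where 1.31%, 0.617%, and 1.41% of all genes did. At an unadjusted p below 0.05 and any fold, 20, 14, and 24 actin genes passed. The largest rise was that of PFN2 in CGNL1-KO cells, to 1.73 times the WT mean, and the largest fall that of PLS1 in double-KO cells, by 27.4%. The median log2 change of the 57 genes was -0.038 in CGN-KO cells, 0.022 in CGNL1-KO cells, and -0.0057 in double-KO cells, beside -0.0039, -0.0031, and -0.00036 for all genes. Taken without sign, the median log2 change was 0.092, 0.072, and 0.120, smaller than the 0.122, 0.095, and 0.138 of all genes. The 3 values of the KO line lay wholly above or wholly below the 3 WT values for 22, 15, and 32 actin genes, against 35.9%, 24.4%, and 45% of all genes.

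**Figure D1:**
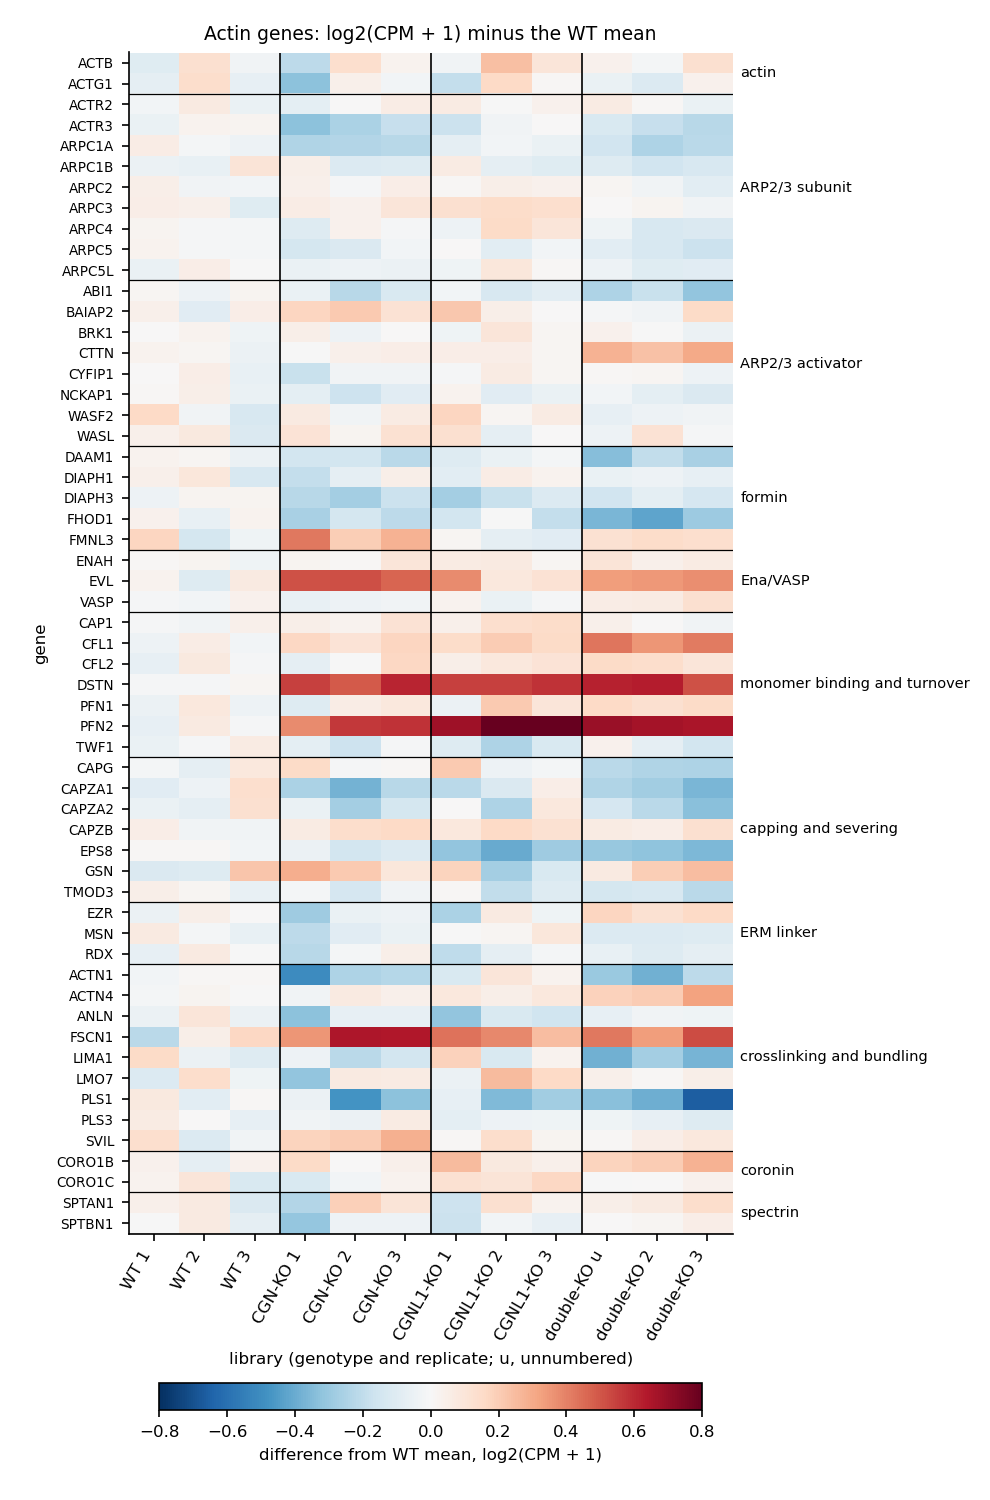
Each row is 1 of the 57 actin genes, ordered by role, and each column 1 library; color gives log2(CPM + 1) minus the mean of the 3 WT libraries, from -0.8 to 0.8. The rows of PFN2, DSTN, and FSCN1 are red in all 9 KO libraries, the EVL row is most strongly red in CGN-KO libraries, and the CTTN and CFL1 rows are darkest in the 3 double-KO libraries.

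Of the 57 genes, 23 were called in at least 1 KO line and 34 in none. PFN2, DSTN, and FSCN1 were called in all 3 lines and were higher in each. The comparisons share the WT libraries, so a low or high WT value would move all 3 together. No gene was called in opposite directions in different lines. Of the 7 genes called in 2 lines, ACTN1, ACTR3, ARPC1A, and CAPZA1 were lower in CGN-KO and double-KO cells, EVL was higher in those lines, EPS8 was lower in CGNL1-KO and double-KO cells, and DIAPH3 was lower in CGN-KO and CGNL1-KO cells. The 13 genes called in 1 line were FMNL3 and SVIL, higher in CGN-KO cells, and 11 genes in double-KO cells.

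**Figure D2:**
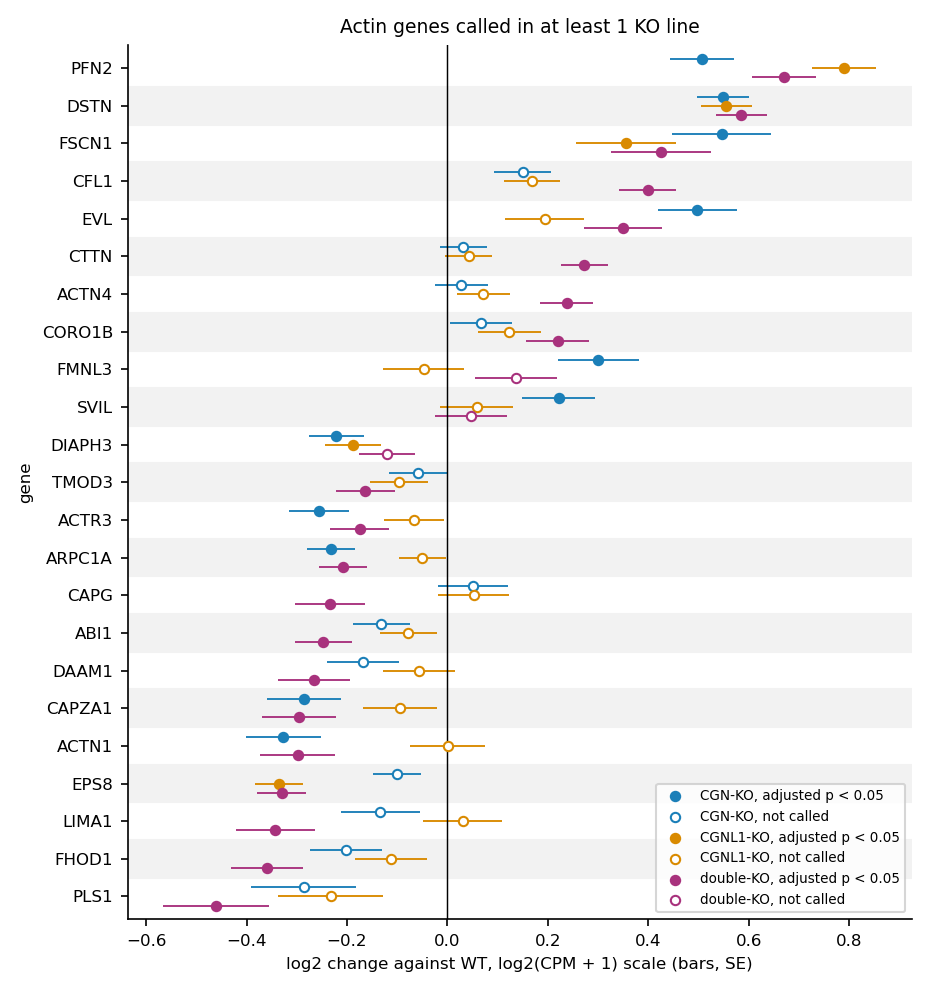
Points give the log2 change against WT of the 23 actin genes called in at least 1 KO line, and bars the SE (3 libraries per genotype); filled points passed an adjusted p below 0.05 and open points did not. PFN2 reaches 0.79 in CGNL1-KO cells, PLS1 lies at -0.46 in double-KO cells, and every point stays within 1 log2 unit of WT.

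The cytoplasmic actins, the β-actin gene ACTB and the γ-actin gene ACTG1, were not called in any line. ACTB was 608, 710.5, and 639 CPM in WT, 563, 715, and 663 CPM in CGN-KO, 639, 770.2, and 695 CPM in CGNL1-KO, and 668, 642, and 713 CPM in double-KO cells. ACTG1 was 3642, 4207, and 3650.1 CPM in WT, 3049, 3925, and 3772 CPM in CGN-KO, 3358, 4272, and 3849.6 CPM in CGNL1-KO, and 3686, 3552, and 3920.1 CPM in double-KO cells. For both genes the libraries of every KO line overlapped those of WT cells, and replicate 2 was the highest library in WT and in both single-KO lines. The log2 changes of ACTB were -0.02 ± 0.09 (SE, n = 3, adjusted p = 0.93) in CGN-KO, 0.10 ± 0.09 (SE, n = 3, adjusted p = 0.54) in CGNL1-KO, and 0.05 ± 0.09 (SE, n = 3, adjusted p = 0.72) in double-KO cells. Those of ACTG1 were -0.10 ± 0.11 (SE, n = 3, adjusted p = 0.56), -0.01 ± 0.11 (SE, n = 3, adjusted p = 0.98), and -0.04 ± 0.11 (SE, n = 3, adjusted p = 0.81). ACTG1 was also, with ACTR2 and BRK1, among the 3 actin genes with the largest p of the F test over the 4 genotypes (adjusted p = 0.82, 0.94, and 0.95). The 2 actin genes are similar in sequence, so some reads may not be told apart between them. How reads were split was not examined, and their separate levels are uncertain.

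Of the 9 ARP2/3 subunit genes, 2 were lower in CGN-KO cells, 0 were called in CGNL1-KO cells, and 2 were lower in double-KO cells. They were the same genes, ACTR3 and ARPC1A. Of all genes tested, 7.87%, 3.49%, and 11.5% were called lower in the 3 lines. With chromosome medians subtracted both kept their CGN-KO calls, and ARPC1A alone kept its double-KO call. With neighbouring genes subtracted ACTR3 kept its calls in both lines and ARPC1A in neither. ACTR3, which encodes an actin-related subunit that with ARP2 forms the start of a new filament, was 565, 597, and 594 CPM in WT, 466, 490.2, and 515 CPM in CGN-KO, 519, 574, and 586 CPM in CGNL1-KO, and 539, 514, and 503 CPM in double-KO cells. All CGN-KO and all double-KO values lay below the lowest WT value, and the CGNL1-KO values overlapped WT. The log2 change was -0.26 ± 0.06 (SE, n = 3, adjusted p = 0.0061) in CGN-KO, -0.07 (adjusted p = 0.57) in CGNL1-KO, and -0.17 ± 0.06 (SE, n = 3, adjusted p = 0.039) in double-KO cells. The double-KO call was lost without WT replicate 2 (-0.16), WT replicate 3 (-0.16), double-KO replicate 2 (-0.17), or double-KO replicate 3 (-0.15).

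ARPC1A, 1 of the 2 genes for the alternative ARPC1 subunits, was 301, 286, and 281 CPM in WT, 245, 246, and 248 CPM in CGN-KO, 275, 285, and 279 CPM in CGNL1-KO, and 259.8, 243, and 249 CPM in double-KO cells. It fell by 14.9% of the mean in CGN-KO cells (log2 -0.23 ± 0.05 SE, adjusted p = 0.0024) and by 13.4% in double-KO cells (log2 -0.21 ± 0.05 SE, adjusted p = 0.004), in both without overlap with WT. Its partner ARPC1B, the next gene on the chromosome, was not called, with log2 changes of -0.06, -0.03, and -0.13. The other 7 subunit genes (ACTR2, ARPC1B, ARPC2, ARPC3, ARPC4, ARPC5, and ARPC5L) ranged from -0.13 to 0.14 over the 3 lines and were not called. ACTR2, the other actin-related subunit, stayed within 0.03 log2 units of WT in each line.

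The 8 genes listed as ARP2/3 activators were not called in the single-KO lines, and in double-KO cells CTTN rose and ABI1 fell. Cortactin, the product of CTTN, binds the complex and stabilizes branches. CTTN was 384, 379.5, and 365 CPM in WT, 376, 388, and 390.1 CPM in CGN-KO, 391, 390.2, and 381 CPM in CGNL1-KO, and 457, 442, and 465 CPM in double-KO cells. Its 3 double-KO values lay above all 9 other values, whereas those of both single-KO lines overlapped WT. The rise was 20.9% of the mean (log2 0.27 ± 0.05 SE, adjusted p = 0.00045, and -0.03 once its chromosome's median was subtracted), beside 0.03 (adjusted p = 0.69) in CGN-KO and 0.04 (adjusted p = 0.66) in CGNL1-KO cells. Genes on the same chromosome as CTTN rose by about as much in these cells, as described with the gene positions.

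ABI1 encodes a subunit of the WAVE complex, which switches on ARP2/3 at membranes. ABI1 was 122, 117, and 122 CPM in WT and 101, 106, and 96.5 CPM in double-KO cells and fell by 15.9% of the mean (log2 -0.25 ± 0.06 SE, adjusted p = 0.0041), without overlap. Its log2 changes were -0.13 (adjusted p = 0.12) in CGN-KO and -0.08 (adjusted p = 0.47) in CGNL1-KO cells. The other WAVE complex genes measured, WASF2, CYFIP1, NCKAP1, and BRK1, were not called in any line, nor were the N-WASP gene WASL and the membrane-bending adaptor BAIAP2. Over all activators not called, log2 changes ran from -0.13 to 0.17.

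The 5 formin genes measured moved in different directions. DIAPH3, a diaphanous-related formin, was 79.7, 83.3, and 83.1 CPM in WT, 70.3, 67.7, and 72.7 CPM in CGN-KO, 67.7, 72.4, and 75.8 CPM in CGNL1-KO, and 73.7, 77.7, and 74.8 CPM in double-KO cells. All 9 KO values lay below the WT values. The log2 change was -0.22 ± 0.06 (SE, n = 3, adjusted p = 0.0099) in CGN-KO, -0.19 ± 0.06 (SE, n = 3, adjusted p = 0.041) in CGNL1-KO, and -0.12 (adjusted p = 0.12) in double-KO cells. The CGNL1-KO call was lost (log2 -0.15 to -0.21) when any library was left out other than CGN-KO replicate 1, CGN-KO replicate 2, and CGNL1-KO replicate 3. Its relative DIAPH1 was not called in any line, with log2 changes of -0.07, 0.00, and -0.05.

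FHOD1 and DAAM1, formins of contractile bundles and of Wnt signaling respectively, were lower in double-KO cells. FHOD1 was 29.1, 27.2, and 28.9 CPM in WT, 23.6, 25.7, and 24.4 CPM in CGN-KO, 25.5, 28.3, and 24.8 CPM in CGNL1-KO, and 21.8, 20.9, and 23.1 CPM in double-KO cells. It fell by 22.8% of the mean in double-KO cells (log2 -0.36 ± 0.07 SE, adjusted p = 0.0016), and the log2 changes of -0.20 (adjusted p = 0.062) in CGN-KO and -0.11 (adjusted p = 0.4) in CGNL1-KO cells were not called. DAAM1 was 19.9, 19.7, and 18.9 CPM in WT and 15.2, 16.9, and 16.1 CPM in double-KO cells, with a log2 change of -0.27 ± 0.07 (SE, n = 3, adjusted p = 0.011). Without the unnumbered double-KO library this was -0.23 and not called. FMNL3, a formin of filopodia and lamellipodia, was instead higher in CGN-KO cells. FMNL3 was 32.9, 26.3, and 28.4 CPM in WT, 39.3, 33.5, and 35.5 CPM in CGN-KO, 29.4, 27.6, and 27.3 CPM in CGNL1-KO, and 31.8, 32.3, and 32.03 CPM in double-KO cells. The lowest CGN-KO value lay just above the highest WT value, and the log2 change was 0.30 ± 0.08 (SE, n = 3, adjusted p = 0.015), beside -0.05 (adjusted p = 0.79) in CGNL1-KO and 0.14 (adjusted p = 0.23) in double-KO cells. The call was lost without WT replicate 2 (0.23), WT replicate 3 (0.28), or CGN-KO replicate 1 (0.24).

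Of the 3 Ena/VASP genes, whose products speed growth at filament ends, EVL rose in CGN-KO and double-KO cells, and ENAH and VASP were not called. EVL was 25.2, 22.9, and 25.9 CPM in WT, 35.5, 35.6, and 34.4 CPM in CGN-KO, 32.3, 26.2, and 26.8 CPM in CGNL1-KO, and 31.2, 31.6, and 32.2 CPM in double-KO cells. All 9 KO values lay above the WT values, although CGNL1-KO replicates 2 and 3 did so by little. EVL rose by 42.7% of the mean in CGN-KO (log2 0.50 ± 0.08 SE, adjusted p = 0.00027) and by 28.4% in double-KO cells (log2 0.35 ± 0.08 SE, adjusted p = 0.0034), and its log2 change in CGNL1-KO cells was 0.19 (adjusted p = 0.15). ENAH, which encodes Mena, stayed between 0.04 and 0.07 and VASP between -0.04 and 0.08 on the log2 scale.

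The largest rise in CGNL1-KO and double-KO cells was that of PFN2, a monomer-binding gene. In CGN-KO cells the turnover gene DSTN and the bundling gene FSCN1 rose by about as much (46.99% and 47.2% of the mean). Of the 7 monomer-binding and turnover genes, 2 were higher in CGN-KO cells, 2 in CGNL1-KO cells, and 3 in double-KO cells, and 0 were lower. The group's median log2 change was 0.062, 0.11, and 0.15. Beside them, 11.2%, 6.81%, and 14.8% of all genes tested were called higher. With chromosome medians subtracted 2 genes of this group were higher in each line. With neighbouring genes subtracted 1, 1, and 2 were higher, and the group's median was 0.043, 0.099, and 0.096. DSTN was then called in no line, and CFL1 was not called in double-KO cells. PFN2, a profilin that is best known from neurons, was 186, 205, and 194 CPM in WT, 253, 289, and 292 CPM in CGN-KO, 313, 350.4, and 352 CPM in CGNL1-KO, and 315, 309.9, and 308 CPM in double-KO cells. The lowest KO value lay well above the highest WT value. The mean rose from 195 ± 9.42 CPM in WT to 278 ± 21.5 in CGN-KO, 339 ± 21.99 in CGNL1-KO, and 311 ± 3.78 CPM in double-KO cells (SD, n = 3 each). The log2 change was 0.51 ± 0.06 (SE, n = 3, adjusted p = 3.2e-05), 0.79 ± 0.06 (SE, n = 3, adjusted p = 5e-07), and 0.67 ± 0.06 (SE, n = 3, adjusted p = 1.3e-06). PFN1, the profilin of most tissues, was not called in any line, with log2 changes of 0.01, 0.09, and 0.15.

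DSTN encodes destrin (ADF), a relative of cofilin that severs filaments and releases monomers. Its level was 73.1, 72.9, and 74.3 CPM in WT, 108, 104, and 112 CPM in CGN-KO, 108, 108, and 109.9 CPM in CGNL1-KO, and 113, 114, and 105 CPM in double-KO cells. The WT values were within 2% of each other and all 9 KO values were far above them. DSTN rose by 46.99% of the mean in CGN-KO (log2 0.55 ± 0.05 SE, adjusted p = 1.3e-06), by 47.6% in CGNL1-KO (log2 0.56 ± 0.05 SE, adjusted p = 2.2e-06), and by 50.8% in double-KO cells (log2 0.59 ± 0.05 SE, adjusted p = 5.2e-07). The genes beside DSTN rose by as much, as described with the gene positions.

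CFL1, the main nonmuscle cofilin, rose in double-KO cells. CFL1 was 1181, 1264, and 1196 CPM in WT, 1362, 1311, and 1365 CPM in CGN-KO, 1345, 1399, and 1346 CPM in CGNL1-KO, and 1631, 1552, and 1615 CPM in double-KO cells. All 9 KO values lay above WT, and those of double-KO cells above all others. The log2 change was 0.40 ± 0.06 (SE, n = 3, adjusted p = 8e-05) in double-KO cells, beside 0.15 (adjusted p = 0.077) in CGN-KO and 0.17 (adjusted p = 0.073) in CGNL1-KO cells. DESeq2 called it in both single-KO lines, and limma and edgeR did not. With the median of its chromosome subtracted the double-KO change was 0.095 and not called. The muscle cofilin gene CFL2, the twinfilin gene TWF1, and CAP1, which helps to recharge monomers, were not called in any line. Over the genes of this group not called, log2 changes ran from -0.16 to 0.17.

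**Figure D3:**
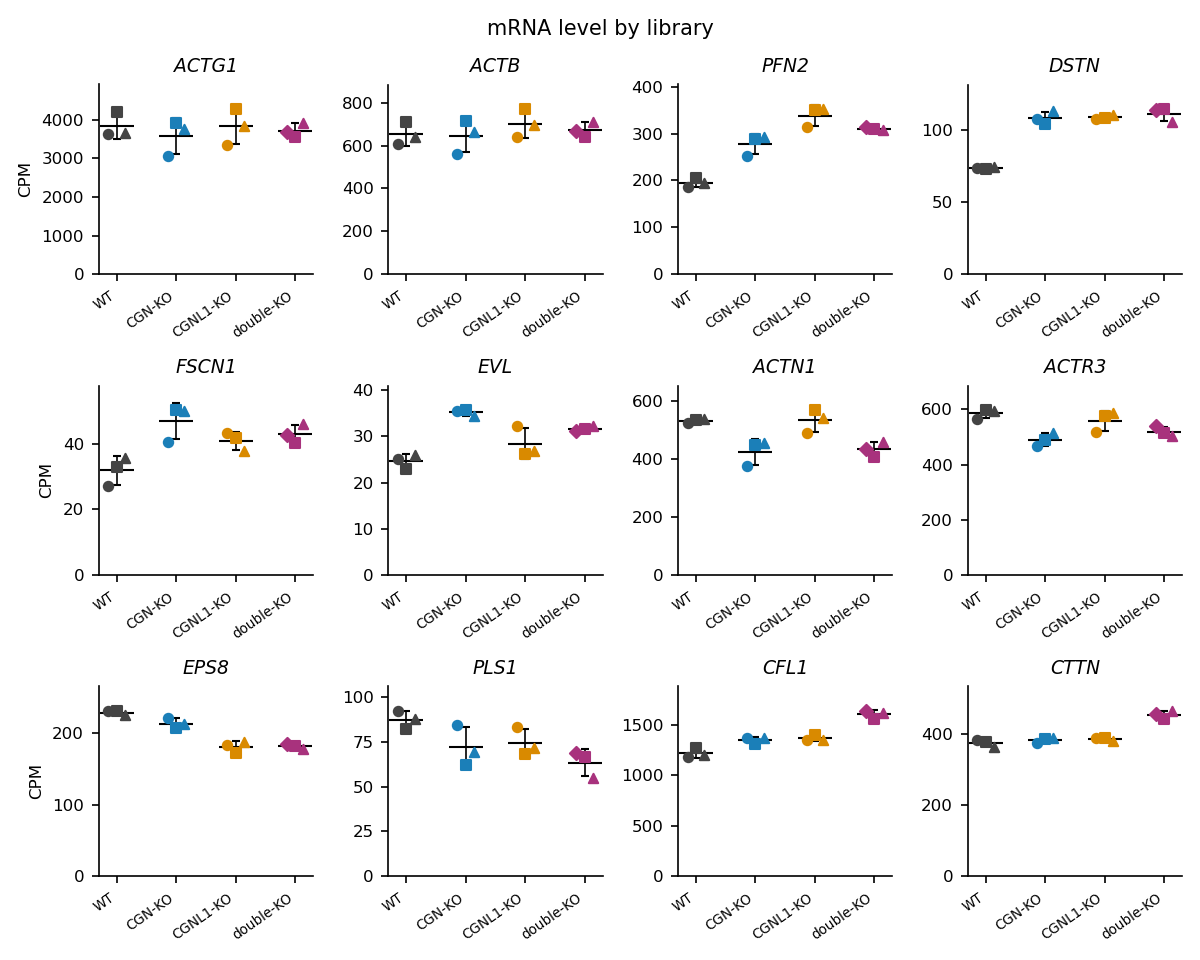
Each panel gives CPM of 1 gene (linear axis from 0) in the 12 libraries by genotype; circles, squares, and triangles are replicates 1, 2, and 3, diamonds the unnumbered double-KO library, and black lines mean ± SD. ACTG1 and ACTB overlap between genotypes, PFN2, DSTN, and FSCN1 are higher in all 9 KO libraries, and EPS8 is lower in CGNL1-KO and double-KO cells.

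Of the 7 capping and severing genes, 1 was lower in CGN-KO cells, 1 in CGNL1-KO cells, and 4 in double-KO cells, and 0 were higher. The group's median log2 change in double-KO cells was -0.23. With chromosome medians subtracted that median was -0.15 and CAPZA1 and EPS8 kept their double-KO calls, and with neighbouring genes subtracted it was -0.12 and EPS8 alone kept its call. Beside them, 7.87%, 3.49%, and 11.5% of all genes tested were called lower. EPS8, whose product caps and bundles filaments in microvilli, was 231, 231, and 226 CPM in WT, 222, 207, and 213 CPM in CGN-KO, 184, 173, and 188 CPM in CGNL1-KO, and 186, 183, and 178 CPM in double-KO cells. The CGNL1-KO and double-KO values lay below all WT and CGN-KO values, and the CGN-KO values lay between. Its log2 change was -0.34 ± 0.05 (SE, n = 3, adjusted p = 0.00024) in CGNL1-KO and -0.33 ± 0.05 (SE, n = 3, adjusted p = 0.00011) in double-KO cells but -0.10 (adjusted p = 0.16) in CGN-KO cells.

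CAPZA1, an α subunit of the capping protein that closes growing ends, was 469.7, 487, and 549 CPM in WT, 419, 384, and 429 CPM in CGN-KO, 431, 462, and 518 CPM in CGNL1-KO, and 423, 412, and 388 CPM in double-KO cells. It fell by 18.1% of the mean in CGN-KO (log2 -0.29 ± 0.07 SE, adjusted p = 0.012) and by 18.7% in double-KO cells (log2 -0.30 ± 0.07 SE, adjusted p = 0.0074), with KO values below all WT values in both. The CGN-KO call was lost without WT replicate 3 (-0.22) or CGN-KO replicate 2 (-0.24). The other α subunit gene CAPZA2 had a log2 change of -0.23 (adjusted p = 0.06) in double-KO cells and was not called. It was called there by DESeq2, with only double-KO and WT libraries in the fit, with scaling by library totals, and without CGN-KO replicate 1, CGNL1-KO replicate 1, or CGNL1-KO replicate 2 (-0.23 in each case). The β subunit gene CAPZB was 0.12 (adjusted p = 0.095), 0.12 (adjusted p = 0.15), and 0.08 (adjusted p = 0.23).

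CAPG and TMOD3 were also lower in double-KO cells and are named here after their values were seen. CAPG, a capping relative of gelsolin, was 741, 713, and 794 CPM in WT and 645, 633, and 632 CPM in double-KO cells (log2 -0.23 ± 0.07 SE, adjusted p = 0.021), and lost its call without WT replicate 3 (-0.19), double-KO replicate 2 (-0.23), or double-KO replicate 3 (-0.23). TMOD3, which caps the slow-growing end, was 240.3, 234, and 223 CPM in WT and 210.2, 212, and 199 CPM in double-KO cells (log2 -0.16 ± 0.06 SE, adjusted p = 0.0498). It lost its call when any 1 of 7 libraries was left out, namely WT replicates 1 and 2, CGN-KO replicate 3, CGNL1-KO replicate 3, and each double-KO library (-0.14 to -0.18), and it was not called by edgeR. Gelsolin (GSN), a severing protein, was not called, with log2 changes of 0.20, -0.07, and 0.17.

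The ERM proteins ezrin, radixin, and moesin link filaments to the plasma membrane, and ezrin is the main one of epithelial microvilli. None of EZR, RDX, and MSN was called in any KO line against WT. EZR was 1044, 1113, and 1081 CPM in WT, 887, 1038, and 1047 CPM in CGN-KO, 904, 1133, and 1054 CPM in CGNL1-KO, and 1217, 1172, and 1203 CPM in double-KO cells. Its double-KO values lay above all WT values (log2 0.15, adjusted p = 0.19), whereas its CGN-KO values reached from below the WT range into it and its CGNL1-KO values from below that range to above it (log2 -0.13, adjusted p = 0.29 and -0.07, adjusted p = 0.66). EZR was called in double-KO cells when the fit held only double-KO and WT libraries. RDX ranged from -0.10 to -0.07 and MSN from -0.12 to 0.03 on the log2 scale.

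The 9 crosslinking and bundling genes moved in both directions. FSCN1 encodes fascin, which packs filaments into the bundles of filopodia. FSCN1 was 27.2, 32.8, and 35.7 CPM in WT, 40.7, 50.2, and 49.9 CPM in CGN-KO, 43.2, 41.7, and 37.7 CPM in CGNL1-KO, and 42.7, 40.2, and 45.95 CPM in double-KO cells. The WT values were more widely spread than those of PFN2 or DSTN, and all 9 KO values lay above them. Its log2 change was 0.55 ± 0.10 (SE, n = 3, adjusted p = 0.00096) in CGN-KO, 0.36 ± 0.10 (SE, n = 3, adjusted p = 0.031) in CGNL1-KO, and 0.43 ± 0.10 (SE, n = 3, adjusted p = 0.0046) in double-KO cells. The CGNL1-KO call was lost without WT replicate 1 (0.25), WT replicate 2 (0.38), CGNL1-KO replicate 1 (0.32), or CGNL1-KO replicate 2 (0.34), when only CGNL1-KO and WT libraries were fitted, and with scaling by library totals (0.32). ACTB is the next gene on the chromosome after FSCN1, and it was not called.

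The nonmuscle α-actinin genes changed in opposite directions in double-KO cells. ACTN1 was 524, 534, and 535 CPM in WT, 373, 447, and 454 CPM in CGN-KO, 488, 567, and 541 CPM in CGNL1-KO, and 432, 406, and 458 CPM in double-KO cells. It fell by 19.99% of the mean in CGN-KO (log2 -0.33 ± 0.07 SE, adjusted p = 0.0057) and by 18.6% in double-KO cells (log2 -0.30 ± 0.07 SE, adjusted p = 0.0075), without overlap with WT, and its CGNL1-KO values lay on both sides of WT. ACTN4 was 581, 596, and 588 CPM in WT, 576, 619.8, and 605 CPM in CGN-KO, 624, 607, and 625 CPM in CGNL1-KO, and 669, 679, and 736 CPM in double-KO cells. It was called in double-KO cells only, where it rose by 18.03% of the mean (log2 0.24 ± 0.05 SE, adjusted p = 0.0034), beside 0.03 (adjusted p = 0.76) and 0.07 (adjusted p = 0.48) in the single-KO lines. With the median of its chromosome subtracted the rise was 0.038 and not called.

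PLS1 and LIMA1 fell in double-KO cells. PLS1 encodes plastin 1, a bundling protein of intestinal and renal microvilli, and was 92.04, 82.1, and 87.6 CPM in WT, 84.2, 62.2, and 69.2 CPM in CGN-KO, 83.3, 67.97, and 71.6 CPM in CGNL1-KO, and 68.9, 66.3, and 54.9 CPM in double-KO cells. Its double-KO values lay below WT, with replicate 3 the lowest, and in each single-KO line replicate 1 lay within the WT range. The log2 change was -0.46 ± 0.11 (SE, n = 3, adjusted p = 0.0039) in double-KO, -0.29 (adjusted p = 0.069) in CGN-KO, and -0.23 (adjusted p = 0.2) in CGNL1-KO cells. In CGN-KO cells PLS1 was called without CGN-KO replicate 1 (-0.40) or CGNL1-KO replicate 1 (-0.29). LIMA1 encodes EPLIN, which stabilizes filaments at the junctional belt, and was 249.8, 218, and 209 CPM in WT, 219, 193, and 203 CPM in CGN-KO, 255, 207, and 229.7 CPM in CGNL1-KO, and 172, 186, and 173 CPM in double-KO cells. It fell by 21.4% of the mean in double-KO cells (log2 -0.34 ± 0.08 SE, adjusted p = 0.0041) and was not called in CGN-KO (-0.13, adjusted p = 0.26) or CGNL1-KO cells (0.03, adjusted p = 0.87).

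SVIL, which encodes the membrane-bound supervillin, was higher in CGN-KO cells, with 32.3, 27.1, and 28.7 CPM in WT and 33.2, 33.9, and 35.8 CPM in CGN-KO cells (log2 0.22 ± 0.07 SE, adjusted p = 0.041). This call was lost (0.17 to 0.24) when any library was left out other than WT replicate 1, CGNL1-KO replicate 1, and CGNL1-KO replicate 2. The anillin gene ANLN, the plastin gene PLS3, and LMO7 were not called. ANLN was nevertheless below all WT values in both single-KO lines, at 462, 555, and 554 CPM in CGN-KO and 465, 534, and 520.0 CPM in CGNL1-KO against 561, 619.6, and 562 CPM in WT cells (log2 -0.15, adjusted p = 0.16 and -0.20, adjusted p = 0.11). It was called in CGNL1-KO cells without CGN-KO replicate 1 (-0.20).

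Of the coronins, which bind filaments and the ARP2/3 complex, CORO1B was higher in double-KO cells. CORO1B was 129.8, 121, and 129.5 CPM in WT and 143, 146, and 154 CPM in double-KO cells (log2 0.22 ± 0.06 SE, adjusted p = 0.016). The call was lost without WT replicate 2 (0.18) or double-KO replicate 3 (0.19). With the median of its chromosome subtracted the change was -0.08 (adjusted p = 0.39) and not called. CORO1C was not called. The spectrin genes SPTAN1 and SPTBN1, whose products form the submembrane skeleton, were not called in any line. SPTAN1 was 725, 741, and 649 CPM in WT, 599, 804, and 758 CPM in CGN-KO, 627, 768, and 716 CPM in CGNL1-KO, and 727, 741, and 777 CPM in double-KO cells. SPTBN1 was 684, 721, and 653 CPM in WT, 554, 666, and 668 CPM in CGN-KO, 609, 675, and 655 CPM in CGNL1-KO, and 687, 694, and 711 CPM in double-KO cells. Replicate 1 was the lowest library of both single-KO lines for both genes, as it was for ACTB, ACTG1, EZR, and RDX. Over all 57 actin genes, CGN-KO replicate 1 was the lowest of its genotype for 29 genes and CGNL1-KO replicate 1 for 31, and the median coefficient of variation of a gene was 4.38% in WT, 4.94% in CGN-KO cells, 5.36% in CGNL1-KO cells, and 2.76% in double-KO cells.

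Some actin genes rose together with the genes beside them. Each actin gene was set beside the tested genes nearest to it in gene order, up to 12 on each side. That gave 24 neighbours for most genes, but 23 for ABI1 and CAPZA2, 19 for NCKAP1, 17 for CAPZA1, and 13 for GSN. DSTN was the clearest case. The median log2 change of its 24 neighbours was 0.56 in CGN-KO cells, 0.61 in CGNL1-KO cells, and 0.58 in double-KO cells, against 0.55, 0.56, and 0.59 for DSTN itself, and all 24 had a positive change in each line. With the neighbours' median subtracted from each library, DSTN was at -0.02 (adjusted p = 0.86), -0.06 (adjusted p = 0.58), and 0.04 (adjusted p = 0.66). The rise of DSTN was thus no larger than that of the genes around it.

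CTTN, CFL1, and CORO1B lie on 1 chromosome, the one that holds CTNND1, where 66.3% of 398 genes were called higher in double-KO cells and the median log2 change was 0.30. ACTN4, EZR, and VASP lie on the chromosome that holds MYH14, where 41.3% of 688 genes were called higher in double-KO cells and the median was 0.20. Minus the chromosome's median in each library, the double-KO changes were -0.03 for CTTN, 0.095 for CFL1, -0.08 for CORO1B, and 0.038 for ACTN4, and none of the 4 was called. CTTN and CORO1B thus changed sign. VASP, not called before, was lower with its neighbours subtracted (-0.19, adjusted p = 0.012). With the chromosome medians subtracted, 13 actin genes were called in double-KO cells, of which 4 were higher (PFN2, DSTN, FSCN1, and EVL) and 9 lower, while 22.6% of all genes were called. ACTR3, CAPG, and TMOD3 were the falls that lost their call there.

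PFN2, FSCN1, and EVL rose apart from their neighbours. The neighbours of PFN2 had medians of -0.07, -0.0031, and -0.14, and with these subtracted PFN2 was at 0.58 (adjusted p = 1.3e-05), 0.83 (adjusted p = 5.3e-07), and 0.79 (adjusted p = 3.8e-07). FSCN1 was then at 0.53 (adjusted p = 0.0012), 0.39 (adjusted p = 0.02), and 0.39 (adjusted p = 0.0095). EVL was at 0.59 (adjusted p = 7.7e-05) in CGN-KO and 0.38 (adjusted p = 0.0031) in double-KO cells. Of the falls, ACTN1, ACTR3, EPS8, PLS1, FHOD1, LIMA1, and ABI1 in double-KO cells kept their calls with neighbours subtracted, whereas ARPC1A (-0.12, adjusted p = 0.11), CAPZA1 (-0.12, adjusted p = 0.3), DAAM1 (-0.13, adjusted p = 0.27), CAPG (-0.22, adjusted p = 0.067), and TMOD3 did not. In CGN-KO cells ACTN1 (-0.36, adjusted p = 0.0046) and ACTR3 (-0.25, adjusted p = 0.0082) kept theirs, and ARPC1A (-0.14, adjusted p = 0.071), CAPZA1 (-0.21, adjusted p = 0.075), and DIAPH3 (-0.17, adjusted p = 0.058) did not. The subtraction also gave calls to genes that had none, namely FHOD1 (-0.26, adjusted p = 0.015), CTTN (-0.15, adjusted p = 0.042), and WASL (0.21, adjusted p = 0.026) in CGN-KO cells and CFL2 (0.20, adjusted p = 0.029) and ENAH (0.16, adjusted p = 0.033), besides VASP, in double-KO cells. Gene order and chromosomes came from another dog assembly than the one used for the counts, and what moved whole stretches of genes was not tested.

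**Figure D4:**
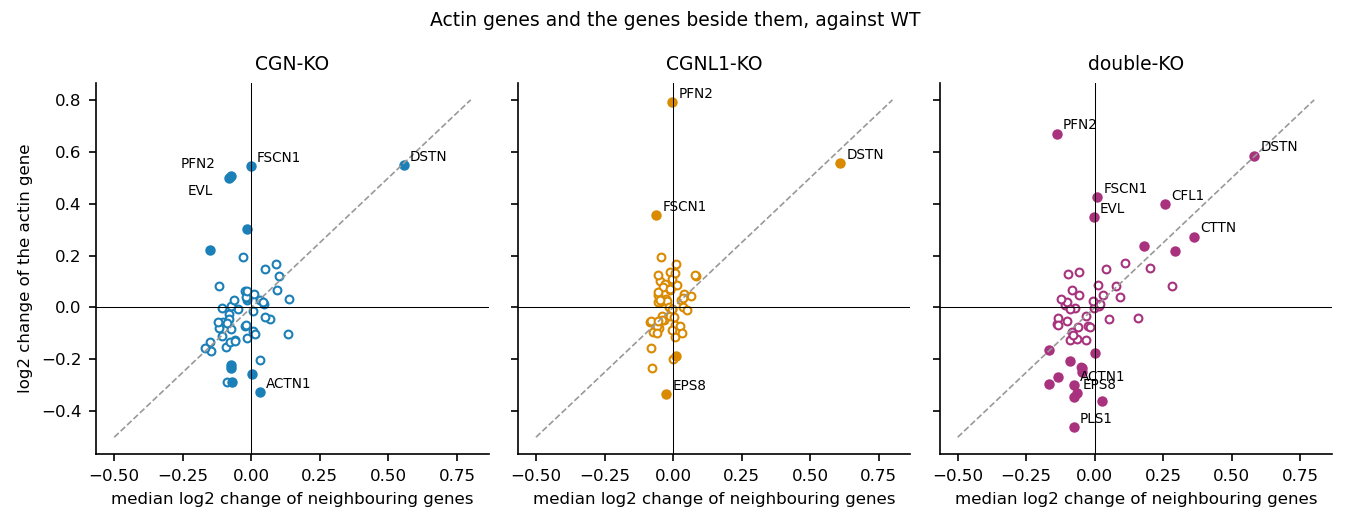
Each point is 1 of the 57 actin genes in 1 KO line. The x axis gives the median log2 change of its neighbouring genes (up to 24), and the y axis its own log2 change against WT. Filled points were called, and the dashed line marks equal change. DSTN lies on or near the line in all 3 panels, CTTN and CFL1 lie to the right in double-KO cells, and PFN2 lies far above the line throughout.

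Ratios of related genes within a library take out any factor that moves both genes alike. For 17 pairs the 3 ratios of each KO line were compared with those of WT cells by an exact permutation test (two-sided, 51 tests), which cannot go below p = 0.1 with 3 values against 3. The ratios did not overlap WT for 10 pairs in CGN-KO cells, 6 in CGNL1-KO cells, and 11 in double-KO cells, each at p = 0.1 in the exact test (0.19 after Benjamini-Hochberg adjustment). Of all single genes, 35.9%, 24.4%, and 45% did not overlap, as given above, but a single gene is not a like measure to a ratio. No share is given here for ratios of other gene pairs, and some of the 17 pairs share a gene. The counts of ratios thus have no background.

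The ratio of ACTB to ACTG1 was 0.167, 0.169, and 0.175 in WT, 0.185, 0.182, and 0.176 in CGN-KO cells, 0.190, 0.180, and 0.181 in CGNL1-KO cells, and 0.181, 0.181, and 0.182 in double-KO cells. It was higher in every KO library than in every WT library, by 1.06, 1.08, and 1.06 times on the means, and the closest KO and WT values nearly touched. The ratio of PFN2 to PFN1 was 0.346, 0.347, and 0.359 in WT, 0.489, 0.499, and 0.495 in CGN-KO cells, 0.582, 0.544, and 0.592 in CGNL1-KO cells, and 0.506, 0.510, and 0.496 in double-KO cells, and was higher in all 9 KO libraries. The ratio of EVL to VASP was 0.118, 0.109, and 0.118 in WT and 0.173, 0.172, and 0.164 in CGN-KO cells, and was also above WT in CGNL1-KO (0.148, 0.127, and 0.126) and double-KO cells (0.140, 0.141, and 0.138).

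The ratio of ACTN1 to ACTN4 was 0.901, 0.895, and 0.909 in WT, 0.648, 0.721, and 0.750 in CGN-KO, and 0.645, 0.598, and 0.622 in double-KO cells, 0.78 and 0.69 times the WT mean, and 0.782, 0.934, and 0.866 in CGNL1-KO cells, on both sides of WT. The ratio of ACTR2 to ACTR3, the actin-related subunits of 1 complex, was 0.820, 0.825, and 0.762 in WT, 0.952, 0.959, and 0.951 in CGN-KO, and 0.912, 0.920, and 0.901 in double-KO cells, and overlapped WT in CGNL1-KO cells. EZR to RDX was the only one of the 17 ratios that lay wholly below WT in 1 line and wholly above it in another, with 3.44, 3.34, and 3.40 in WT, 3.26, 3.30, and 3.19 in CGN-KO, and 3.98, 3.95, and 3.97 in double-KO cells. A ratio does not take out what moves 1 gene's chromosome. EZR, ACTN4, and VASP lie on the chromosome of MYH14. With chromosome medians subtracted the double-KO log2 changes of EZR and RDX were nearly alike, at -0.049 and -0.077. Those of ACTN1 and ACTN4 were -0.27 and 0.038 in double-KO cells and -0.30 and 0.021 in CGN-KO cells. For this pair the double-KO and CGN-KO lines were then nearly alike. Those of EVL and VASP were 0.38 and -0.12 in double-KO cells.

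**Figure D5:**
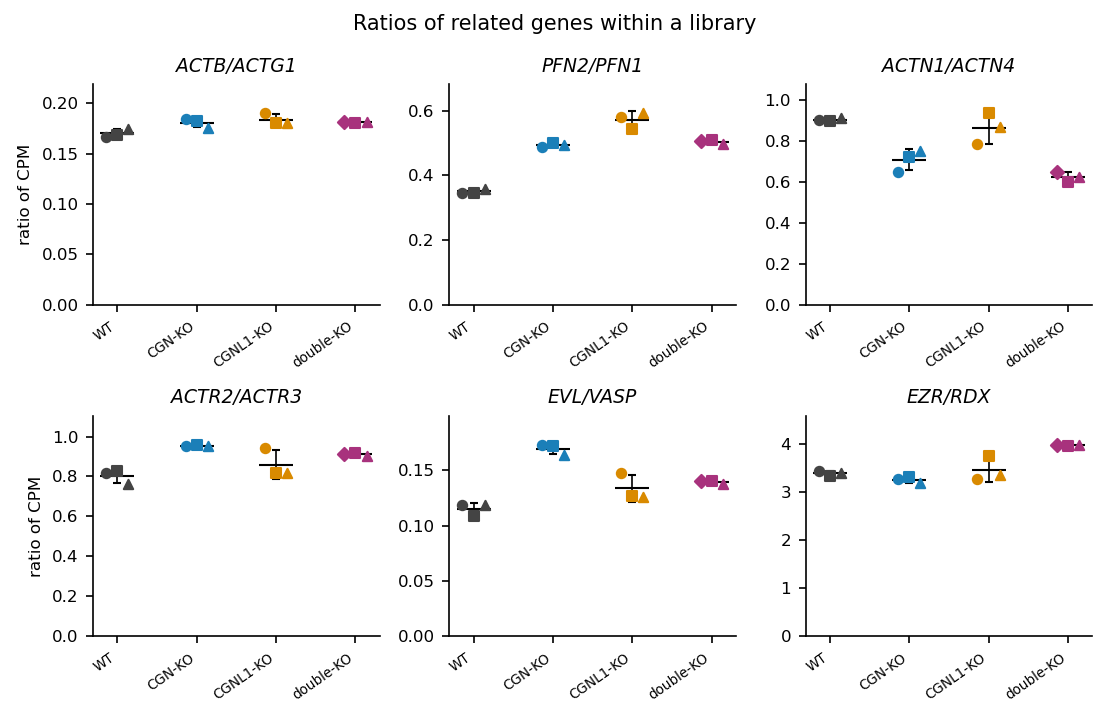
Each panel gives the ratio of the CPM of a pair of related genes within each of the 12 libraries (linear axis from 0); symbols mark replicates as in the plot of levels, and black lines mean ± SD (n = 3). PFN2/PFN1 and EVL/VASP are higher in all 9 KO libraries, and ACTN1/ACTN4 is lower in CGN-KO and double-KO cells.

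The KO lines were also compared with each other in the same fit. Between CGN-KO and CGNL1-KO cells 6 actin genes differed (3 lower and 3 higher, 10.5%, against 5.19% of all genes, of which 2.09% were lower and 3.09% higher). ACTN1 (-0.33), PFN2 (-0.28), and ARPC1A (-0.18) were lower in CGN-KO than in CGNL1-KO cells, and FMNL3 (0.35), EVL (0.30), and EPS8 (0.23) were higher. ACTN1 at 373, 447, and 454 CPM in CGN-KO and 488, 567, and 541 CPM in CGNL1-KO cells did not overlap, nor did EPS8 at 222, 207, and 213 CPM in CGN-KO and 184, 173, and 188 CPM in CGNL1-KO cells. The count was 0 when only these 6 libraries were fitted, 1 without CGN-KO replicate 1, CGNL1-KO replicate 2, or CGNL1-KO replicate 3, and 3 without CGN-KO replicate 3. The replicate numbers of these lines pair the libraries, and with the number as a block 8 genes were called, these 6 and ACTR3 and LMO7.

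Between double-KO and CGN-KO cells 6 actin genes differed (4 higher and 2 lower, 10.5%, against 8.84% of all genes, 4.93% higher and 3.91% lower). CTTN (0.24), CFL1 (0.25), ACTN4 (0.21), and EZR (0.28) were higher in double-KO cells and CAPG (-0.28) and EPS8 (-0.23) were lower. The 4 higher genes all lie on the chromosomes of CTNND1 and MYH14. The count was 1, EPS8, with the chromosome medians subtracted, 0 with the neighbours subtracted, and 3 without CGN-KO replicate 1, the unnumbered double-KO library, or double-KO replicate 3. Between double-KO and CGNL1-KO cells 8 differed (3 higher and 5 lower, 14.04%, against 14.4% of all genes, 8.12% higher and 6.29% lower). CTTN, CFL1, and ACTN4 were higher, and LIMA1 (-0.37), ACTN1 (-0.30), CAPG (-0.29), FHOD1 (-0.25), and ARPC1A (-0.16) lower in double-KO cells. This count was 4 without CGNL1-KO replicate 3 or double-KO replicate 2, 5 without the unnumbered double-KO library, and 4 with the chromosome medians subtracted. The F test over the 4 genotypes called 20 of the 57 actin genes (35.1%, against 29.9% of all genes).

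A second list of 107 further genes that act on actin gives the surroundings of these results. It was chosen by function, also with earlier results of these data known. Of these, 78 were measured and 77 tested, and 11 (14.3%) were called in CGN-KO cells, 13 (16.9%) in CGNL1-KO cells, and 30 (39.0%) in double-KO cells, beside the same backgrounds of 19%, 10.3%, and 26.3%. The shares of this list were not counted with gene position subtracted. What part position had in its double-KO share was therefore not tested. The genes named from this list, other than EPS8L3, were chosen after their values were seen. CORO1A, CORO2A, SSH3, and ANK2 were higher in all 3 lines, and ADD2 was lower in all 3. SSH3 encodes a slingshot phosphatase of the family that activates cofilin, and was 49.4, 51.1, and 54.3 CPM in WT, 71.1, 68.5, and 62.6 CPM in CGN-KO, 71.5, 62.2, and 61.2 CPM in CGNL1-KO, and 77.6, 76.4, and 81.7 CPM in double-KO cells, so all 9 KO values lay above WT (log2 0.38, 0.32, and 0.60; adjusted p = 0.00098, 0.0058, and 1e-05). The coronins CORO1A (0.60, 0.51, and 0.43) and CORO2A (0.44, 0.61, and 0.61) had WT levels below 5 CPM. CORO1A lost its CGNL1-KO call without any 1 of the WT libraries, CGNL1-KO replicate 1, or CGNL1-KO replicate 3 (0.41 to 0.57) and its double-KO call without WT replicate 1, WT replicate 2, the unnumbered double-KO library, or double-KO replicate 3 (0.31 to 0.49). CORO2A lost its CGN-KO call without any 1 of the WT libraries, CGN-KO replicate 1, or CGN-KO replicate 3 (0.36 to 0.47) and its CGNL1-KO call without CGNL1-KO replicate 3 (0.53).

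ADD2 encodes β-adducin, which caps filaments and joins them to spectrin, and was 10.02, 6.68, and 9.51 CPM in WT, 6.46, 5.73, and 5.73 CPM in CGN-KO, 6.21, 3.75, and 4.44 CPM in CGNL1-KO, and 4.75, 4.55, and 4.42 CPM in double-KO cells. Its log2 change was -0.47 ± 0.15 (SE, n = 3, adjusted p = 0.041) in CGN-KO, -0.75 ± 0.15 (SE, n = 3, adjusted p = 0.0038) in CGNL1-KO, and -0.79 ± 0.15 (SE, n = 3, adjusted p = 0.0011) in double-KO cells. The CGN-KO call was lost with its neighbours subtracted (-0.43) and when any library was left out other than WT replicate 2, CGN-KO replicate 1, CGNL1-KO replicate 1, and CGNL1-KO replicate 2 (-0.37 to -0.47). ANK2, an ankyrin that ties spectrin to membrane proteins, had a mean of 0.648 CPM in WT and at most 1.98 CPM in a KO line (log2 0.87, 0.74, and 0.55), and lost its double-KO call without WT replicate 2 (0.41) or double-KO replicate 3 (0.45).

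FHOD3, a formin best known from muscle, moved in opposite directions in the single-KO lines. It was 6.01, 6.79, and 5.50 CPM in WT, 8.94, 12.8, and 10.98 CPM in CGN-KO, 4.12, 3.84, and 3.58 CPM in CGNL1-KO, and 9.15, 9.90, and 12.9 CPM in double-KO cells. The CGN-KO and double-KO values lay above WT (log2 0.74 ± 0.13 SE, adjusted p = 0.001 and 0.71 ± 0.13 SE, adjusted p = 0.0011) and the CGNL1-KO values below it (log2 -0.55 ± 0.13 SE, adjusted p = 0.015). The direct difference between CGN-KO and CGNL1-KO cells was 1.28 ± 0.13 (SE, n = 3, adjusted p = 2e-05). The CGNL1-KO call was lost without WT replicate 2 (-0.48) or CGNL1-KO replicate 3 (-0.51). COBL, the cordon-bleu nucleator, was 23.5, 27.5, and 25.5 CPM in WT, 19.7, 21.8, and 21.1 CPM in CGN-KO, 20.9, 22.4, and 21.5 CPM in CGNL1-KO, and 34.3, 33.4, and 38.6 CPM in double-KO cells, with a fall in CGN-KO (log2 -0.28 ± 0.08 SE, adjusted p = 0.02) and a rise in double-KO cells (log2 0.46 ± 0.08 SE, adjusted p = 0.00039). The fall was lost without WT replicate 2 (-0.22), WT replicate 3 (-0.27), or CGN-KO replicate 1 (-0.24), and the rise with the chromosome median subtracted (0.16). EPS8L3, a relative of EPS8, was the only gene of the second list to pass 2-fold against WT, at 0.177, 0.607, and 0.239 CPM in WT, 2.34, 1.68, and 1.12 CPM in CGN-KO, 0.813, 0.632, and 0.428 CPM in CGNL1-KO, and 1.16, 2.10, and 2.03 CPM in double-KO cells (log2 1.01 ± 0.19 SE, adjusted p = 0.0014 in CGN-KO and 1.04 ± 0.19 SE, adjusted p = 0.00082 in double-KO cells). These levels are low, and the CGN-KO log2 change ranged from 0.33 to 2.38 with the pseudocount and the method.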

How the data were processed

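RNASeq libraries from 4 genotypes of MDCKII cells (3 libraries each) were analysed. Per the labels and the study's methods, the authors aligned reads with STAR (2.7.0f) to CanFam3.1, counted them per gene with HTSeq (0.9.1), and scaled and filtered them with edgeR. The annotation release and the strand setting of the counting were not given in the sources used here, so overlapping and antisense genes cannot be told apart. The deposited values are CPM, a signal scaled to a common library size, in which the authors multiplied each library total by a TMM factor. Whole reads were recovered for 100% of values (within 0.01 reads), giving 16837532 to 30086076 reads per library. At that depth the least covered value of an actin gene rested on 282 reads.

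limma (3.58.1, R 4.3.3; trended variance) was fitted to log2(CPM + 1) of the 12650 genes above 1 CPM in at least 3 libraries, with 1 fit of the 4 genotypes and Benjamini-Hochberg adjustment over all genes tested. Changes are on this scale, which understates those of low genes. Simulated CGN-KO and WT data of 12650 genes were used to test the fit. It recovered 99 of 100 genes changed by 1 log2 unit and 100 of 100 changed by 2, and called 10 unchanged genes. Changes below 1 log2 unit, the size of most changes reported here, were not simulated. How many of such changes the fit recovers or misses is thus not known. Alternatives were edgeR (4.0.16, quasi-likelihood) and DESeq2 (1.42.0) on recovered reads, pseudocounts of 0.5 and 5, no filter, scaling by library totals, the replicate number as a block, subtraction of chromosome medians, only the 2 groups compared, and leaving out each library. Subtraction of the median of up to 24 neighbouring genes was chosen after seeing the data. Gene order and chromosomes came from the RefSeq table of UU_Cfam_GSD_1.0, which is not the authors' build. It was used for neighbours and for chromosome medians. Of the 12650 genes tested, 11748 had a chromosome there.

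Genes named were the members called at 2-fold, up to 8 rises and 8 falls per KO line that were called without overlap with WT, a fixed group (ACTB, ACTG1, EZR, RDX, MSN, CTTN, SPTAN1, and SPTBN1), the 3 with the largest F test p, members not found, and genes of the second list called at 2-fold; others were named after their values were seen. The members and lists were chosen with earlier results of these data known. 1 double-KO library carries no replicate number and was left out of the block. CGN-KO and CGNL1-KO libraries with the same number deviated together (correlations over all genes 0.63, 0.48, and 0.18), and the pairing comes from the data, not the labels. WT libraries deviated with those of the same number at replicates 1 and 2 (0.37 and 0.32 with CGN-KO, 0.33 and 0.37 with CGNL1-KO). At replicate 3 they did not (-0.08 and 0.01). The numbers of double-KO libraries did not pair with those of any other genotype (-0.24 to 0.09). Ratios within a library were compared by two-sided exact permutation tests.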

Additional observations from a re-analysis of the deposited data

Results flagged for a closer look

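Direct tests between KO lines (limma, adjusted over all genes tested) found 20 differences in actin genes, given as log2 differences with the number of 12 single-library omissions under which each call held. ARPC1A was -0.18 in CGN-KO against CGNL1-KO (adjusted p = 0.034, 4 of 12) and -0.16 in double-KO against CGNL1-KO cells (0.035, 8 of 12). CTTN was 0.24 in double-KO against CGN-KO (0.0043, 12 of 12) and 0.23 against CGNL1-KO cells (0.0035, 12 of 12). FMNL3 was 0.35 (0.018, 8 of 12), EVL 0.30 (0.032, 6 of 12), and PFN2 -0.28 (0.014, 9 of 12) in CGN-KO against CGNL1-KO cells. FHOD1 was -0.25 (0.030, 9 of 12) and LIMA1 -0.37 (0.0044, 12 of 12) in double-KO against CGNL1-KO cells.

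CFL1 was 0.25 in double-KO against CGN-KO (0.011, 11 of 12) and 0.23 against CGNL1-KO cells (0.012, 10 of 12). CAPG was -0.28 against CGN-KO (0.018, 8 of 12) and -0.29 against CGNL1-KO cells (0.012, 12 of 12). EZR was 0.28 in double-KO against CGN-KO cells (0.041, 4 of 12). ACTN1 was -0.33 in CGN-KO against CGNL1-KO (0.016, 9 of 12) and -0.30 in double-KO against CGNL1-KO cells (0.013, 10 of 12). ACTN4 was 0.21 in double-KO against CGN-KO (0.021, 9 of 12) and 0.17 against CGNL1-KO cells (0.046, 1 of 12). EPS8 was 0.23 in CGN-KO against CGNL1-KO (0.0078, 12 of 12) and -0.23 in double-KO against CGN-KO cells (0.0074, 12 of 12). With the chromosome medians subtracted the CTTN, CFL1, ACTN4, EZR, and CAPG differences were not called. With neighbouring genes subtracted these, both ARPC1A differences, EPS8 in double-KO against CGN-KO cells, and ACTN1 in double-KO against CGNL1-KO cells were not called. The clones and the genotypes cannot be told apart.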

How the results depend on the processing

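Counts of actin genes called at any fold moved by over 1.5 times as follows. With only the 2 groups in the fit, CGNL1-KO against WT gave 3, CGN-KO against CGNL1-KO 0, and double-KO against CGNL1-KO 5. With chromosome medians subtracted, double-KO against WT gave 13, double-KO against CGN-KO 1, double-KO against CGNL1-KO 4, and the F test 13. With the median of up to 24 neighbours subtracted these were 13, 0, 2, and 12, and CGNL1-KO against WT gave 3. Fewer samples enter the 2-group fit; the cause of the other changes was not tested. Leaving out 1 library gave 8 to 12 (CGN-KO against WT), 3 to 6 (CGNL1-KO against WT), 16 to 21 (double-KO against WT), 1 to 9 (CGN-KO against CGNL1-KO), 3 to 6 (double-KO against CGN-KO), 4 to 11 (double-KO against CGNL1-KO), and 15 to 24 (F test). The replicate block gave 13 in double-KO against CGNL1-KO, and 13, 7, and 19 in the lines against WT. WT libraries deviated with those of the same number only in the single-KO lines and only at replicates 1 and 2. The block added ANLN (-0.15 and -0.20) and PLS1 (-0.29 and -0.23) in CGN-KO and CGNL1-KO against WT. A library matched best with its own number in 13 of 18 checks. The F test gave 25 with the block. Counts at 2-fold were 0 under every alternative run.

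For 236 single-gene values, 5192 values were computed under alternatives, of which 221 lost and 43 gained a call and 13 with a call before or after changed direction, all with position subtracted. Another 151 without a call either way changed sign. With neighbours subtracted DSTN was -0.019 in CGN-KO and -0.064 in CGNL1-KO, CTTN -0.15 in CGN-KO and -0.063 in double-KO, CORO1B -0.081 and VASP -0.19 in double-KO cells against WT, and double-KO against CGNL1-KO was -0.053 for CFL1 and -0.039 for ACTN4. With chromosome medians subtracted CTTN was -0.030 and CORO1B -0.084 in double-KO cells against WT, and double-KO against CGNL1-KO was -0.020 for CTTN, -0.021 for CFL1, and -0.029 for ACTN4. PFN2 in all 3 lines, FSCN1, EVL, and ACTN1 in CGN-KO and double-KO, ACTR3 in CGN-KO, EPS8 in CGNL1-KO and double-KO, and PLS1, FHOD1, LIMA1, and ABI1 in double-KO cells kept their calls in all 22 alternatives.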

Other observations

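Among the further actin genes, other members of families described above also moved, and those named here were chosen after their values were seen. Those with values below all rose, but other genes of the second list fell. Of its 18 ARP2/3 and activator genes tested, 3 were higher in double-KO cells and 5 lower (WASHC5, JMY, ARPIN, BAIAP2L1, and NCK1). Of its 14 crosslinking and bundling genes tested, 4 were higher there and 0 lower. Among all genes tested, 14.8% were called higher in double-KO cells and 11.5% lower. Changes with gene position subtracted are not given for the genes below. In the WAVE complex, ABI2, the relative of ABI1, was 58.04, 61.5, and 59.4 CPM in WT, 65.4, 67.99, and 67.7 CPM in CGN-KO, 67.7, 63.7, and 64.4 CPM in CGNL1-KO, and 73.8, 76.8, and 72.1 CPM in double-KO cells and rose in double-KO cells (log2 0.31 ± 0.05 SE, adjusted p = 0.00037), where ABI1 fell. Its CGN-KO rise (0.17, adjusted p = 0.036) was lost without any 1 of the WT libraries, CGN-KO replicate 2, or CGN-KO replicate 3 (0.15 to 0.19). CYFIP2, the relative of CYFIP1, was 159, 159, and 145 CPM in WT, 165, 163, and 168 CPM in CGN-KO, 176, 184, and 177 CPM in CGNL1-KO, and 207, 197, and 205 CPM in double-KO cells and rose in CGNL1-KO (log2 0.22 ± 0.05 SE, adjusted p = 0.01) and double-KO cells (log2 0.40 ± 0.05 SE, adjusted p = 2.6e-05). Of the crosslinking and bundling genes of the second list, ZYX (0.28, adjusted p = 0.005), the gene for zyxin of focal adhesions and stress fibers, TPM1 (0.19, adjusted p = 0.013), a tropomyosin, and TLN1 (0.19, adjusted p = 0.026), a talin, were higher in double-KO cells. TLN1 lost its call without WT replicate 2 (0.18), WT replicate 3 (0.16), double-KO replicate 2 (0.19), or double-KO replicate 3 (0.17).

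MICAL2, an enzyme that oxidizes actin, rose in CGN-KO (0.41, adjusted p = 0.0009) and CGNL1-KO cells (0.35, adjusted p = 0.006) and was at 0.19 (adjusted p = 0.069) in double-KO cells. There it was called without WT replicate 2 (0.24) or CGNL1-KO replicate 1 (0.19).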
